A study of Homo sapiens with 4 samples.

Results

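CLDN4, KRT19, KRT15 and MALL are 4 genes that epithelial cells use for their contacts, their cytoskeleton and their membrane domains, taken by symbol from the 858 genes of the authors' deposited table. They were compared between MiaPaca-2 cells carrying a short hairpin RNA against PRMT1 (shPRMT1, 2 samples) and MiaPaca-2 cells carrying a non-targeting hairpin (shNTC, 2 samples), 4 samples in all. MiaPaca-2 is an established human pancreatic cancer cell line, and PRMT1 is an arginine methyltransferase of histones and RNA-binding proteins. The table gives 1 ratio, 1 p-value and 1 adjusted p-value per gene for the whole comparison, so values of single samples, depth and the spread between replicates are not analysed here. Nothing in the labels says that the 2 samples of a group came from separate cultures, and the p-values may therefore reflect technical spread only. The labels name the hairpin target of each group, but not how many different hairpins were used, and they name no rescue. The header does not name the numerator of the ratio, and shPRMT1 over shNTC was assumed from PRMT1 itself, at 0.356 (log2 fold change −1.49, p = 0.0156) in the authors' deposited table. If the authors formed the ratio the other way round, higher and lower would swap throughout.

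Claudins are multi-pass membrane proteins that join neighbouring epithelial cells in tight junctions and set which ions pass between them. Keratins are the intermediate filaments of epithelia, in which a type I keratin always pairs with a type II keratin. Proteins of the MAL family are small membrane proteins of lipid rafts, cholesterol-rich patches of membrane that epithelial cells use in sorting proteins to the apical surface. In the pancreas KRT19 marks duct cells and most ductal tumours, CLDN4 is abundant in ductal adenocarcinoma, and KRT15 is better known from basal cells of stratified epithelia.

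Parts of these genes are identical to parts of other genes, and the stretches concerned are shown first because they bear on how reads can be assigned to each gene. MALL has the longest such stretch of the 4. In GENCODE 29, a reference gene annotation, its 459 coding bases (stop codon left out) end with 270 bases, 58.8% of the coding sequence, that recur without a mismatch in AC140479.5, annotated as a processed transcript, and in AC140479.6, annotated as a transcribed unprocessed pseudogene, both on chromosome 2 like MALL itself. The stretch from coding base 160 to base 459 is printed with the part found in both other genes in capitals.
MALL: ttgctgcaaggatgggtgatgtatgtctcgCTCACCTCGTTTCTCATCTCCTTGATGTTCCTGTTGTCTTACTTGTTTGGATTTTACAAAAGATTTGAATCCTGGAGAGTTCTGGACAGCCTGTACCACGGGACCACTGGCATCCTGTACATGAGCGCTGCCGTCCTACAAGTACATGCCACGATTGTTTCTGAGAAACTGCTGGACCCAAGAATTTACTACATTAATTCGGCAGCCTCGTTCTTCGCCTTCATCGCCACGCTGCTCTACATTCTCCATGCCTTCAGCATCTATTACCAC
The identical run goes on beyond the coding part and measures 448 bases with AC140479.5 and 273 bases with AC140479.6. Neither gene was among the 858 listed genes. The authors used another genome build, and whether their annotation held these genes could not be checked.

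**Figure D1:**
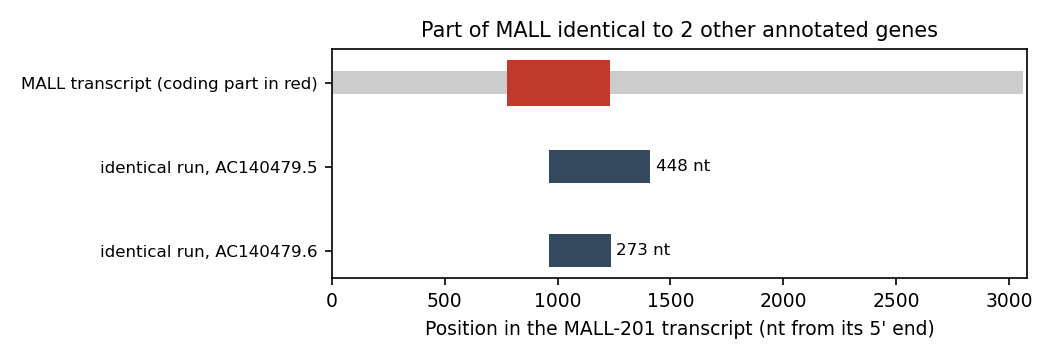
The horizontal axis gives the position in the 3061-base MALL-201 transcript in nucleotides from its 5′ end; the red block is the coding part and the dark bars are the longest runs identical to AC140479.5 (448 nt) and AC140479.6 (273 nt). Both dark bars start at base 964, inside the coding part, and the longer one ends at base 1411, beyond it.

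Of 6 claudins compared with it, CLDN4 shares its longest coding run with CLDN3, the claudin gene next to it on chromosome 7. The coding sequences of both are 78.9% identical over 621 aligned bases, and 71 bases in a row are the same, shown in capitals with 30 bases on each side.
CLDN4: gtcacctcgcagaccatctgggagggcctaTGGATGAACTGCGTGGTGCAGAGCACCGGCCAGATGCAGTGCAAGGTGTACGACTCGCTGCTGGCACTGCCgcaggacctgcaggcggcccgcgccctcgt
CLDN3: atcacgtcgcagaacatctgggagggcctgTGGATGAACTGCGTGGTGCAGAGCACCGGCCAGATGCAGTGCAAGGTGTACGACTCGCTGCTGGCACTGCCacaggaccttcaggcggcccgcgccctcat
CLDN3 was not among the listed genes, so the ratio of CLDN4 has no listed counterpart in the most similar of them. CLDN6 shares a run of 48 coding bases with CLDN4 and was not listed either.

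KRT15 and KRT19 are neighbours on chromosome 17, transcribed in the same direction with no protein-coding gene between them, and both were listed lower. Their coding sequences are 73.1% identical over 1179 aligned bases, and the longest identical run, in capitals, is 29 bases.
KRT15: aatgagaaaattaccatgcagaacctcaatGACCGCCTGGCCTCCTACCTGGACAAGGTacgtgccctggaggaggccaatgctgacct
KRT19: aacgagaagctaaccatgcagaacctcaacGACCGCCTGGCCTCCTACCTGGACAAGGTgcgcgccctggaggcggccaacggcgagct
Both share longer runs with keratins that were not listed. Among the 5 keratins aligned with each, KRT15 has 47 bases in a row in common with each of KRT14, KRT16 and KRT17. KRT19 has 38 with KRT17 and 32 with KRT14 and with KRT16. KRT13 was not aligned, but it shares a longer run with KRT15, of at least 50 bases.

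Counted over all positions, these runs are short for 3 members and long for the fourth. Of the windows of 50 coding bases, 62.7% of those of MALL also occur in a transcript of another GENCODE 29 gene, against 3.81% for CLDN4, 2.09% for KRT19 and 1.29% for KRT15. In windows of 100 coding bases the share was 47.5% for MALL and 0 for the other 3. Over the whole MALL transcript 17.2% of the 50-base windows were shared, where the median of 846 listed genes with a transcript was 0.79% and 137 genes had a larger share than MALL. For KRT19 the 24 shared windows were those of KRT19P1, a pseudogene that was not listed. The 17 shared windows of KRT15 were those of KRT13, which was not listed either. The sources used here do not say how reads that match several genes were counted, nor how long the reads were, and the ratio of MALL is uncertain to that extent. The part of such reads in the members' ratios was not tested.

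**Figure D2:**
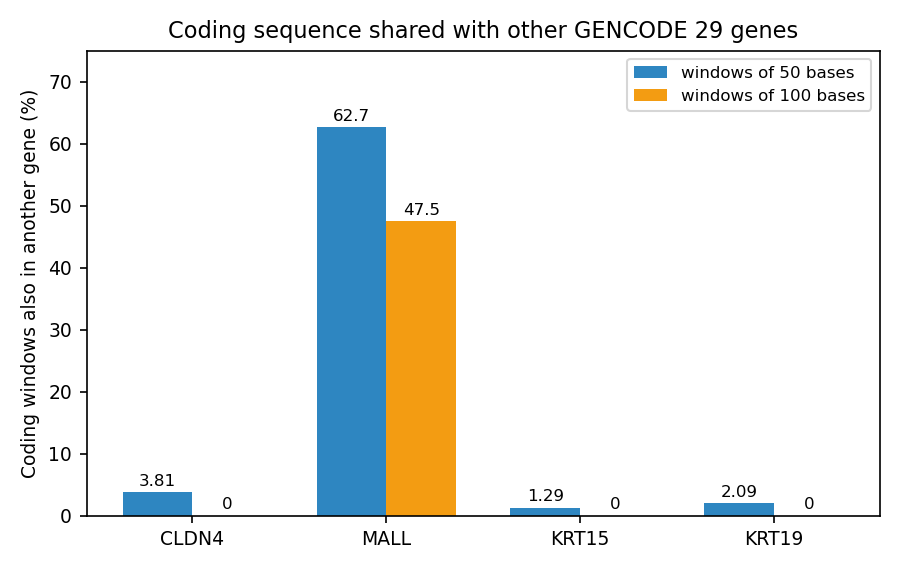
Bars give the percentage of coding windows of 50 bases (blue) and 100 bases (orange) of each member that also occur in a transcript of another GENCODE 29 gene. MALL stands at 62.7% and 47.5%, and CLDN4, KRT15 and KRT19 are at or below 3.81%.

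Among the members, the claudin and the raft gene were listed higher in shPRMT1 and both keratins lower. The members were chosen with these values known, so what follows describes them and tests nothing. CLDN4 (ENSG00000189143.8) had the highest ratio, 1.45, in the authors' deposited table. That is 0.53 on the log2 scale, with p = 0.0142 before and 0.408 after adjustment by the authors. By size it was number 92 of the 357 genes listed higher. MALL (ENSG00000144063.3) stood at a ratio of 1.19. Its log2 fold change was 0.25, and the authors' p of 6.13e-06 gave an adjusted value of 0.0468 in that deposited table. It stood at number 211 of the 357 genes listed higher, below their median log2 fold change of 0.28.

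KRT15 (ENSG00000171346.9) was the lower keratin, for which the authors' deposited table gives a ratio of 0.687, or −0.54 on the log2 scale (p = 0.0147, or 0.410 when adjusted). It was number 84 of the 501 genes listed lower. KRT19 (ENSG00000171345.9) stood at 0.848 in the authors' deposited table, or −0.24 on the log2 scale (p = 0.0207, or 0.432 when adjusted), number 308 of those 501. In percent, the ratios of the authors' deposited table put CLDN4 44.7% and MALL 18.8% above shNTC, and KRT15 and KRT19 at −31.3% and −15.2%. CLDN4 and KRT15 thus differed by about the same factor in opposite directions, and so, at a smaller size, did MALL and KRT19. Without values of single samples, how far neighbours in this order differ beyond their spread cannot be stated.

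Of the 4 members, 1, MALL, passed the authors' adjusted p at 0.05. The same threshold was passed by 0.0131% of the 7640 genes that the adjusted p-values imply were tested, which is MALL itself. All 4 members had an unadjusted p under 0.05, as 11.2% of the genes tested did, because the table holds no others. Of the listed genes, 41.6% were higher and 58.4% lower, beside 2 and 2 of the 4 members. These shares are given as background and nothing is read from them, since the members were picked from the same comparison.

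The p-value of MALL and its size stood far apart in rank. It had the smallest p of the authors' deposited table, and 505 genes (58.9%) had a larger absolute log2 fold change. The smallest p among 7640 tests has to be 6.54e-06 or less for an adjusted p of 0.05, and MALL lay just inside that limit. With the same p it would still pass with 8157 genes tested and no longer with more. The next p in the authors' deposited table, 9.37e-05 for TTI1, was 15.3 times as large, where 1.31e-05 would have been needed at that rank. TTI1, named here after its values were seen, had nearly the same log2 fold change as MALL, 0.26, in the authors' deposited table. The other 3 members stood at ranks 263 (CLDN4), 272 (KRT15) and 363 (KRT19) by p. KRT19 shared its adjusted p of 0.432 with 400 genes of the authors' deposited table, itself included, so that value does not rank it among them.

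**Figure D3:**
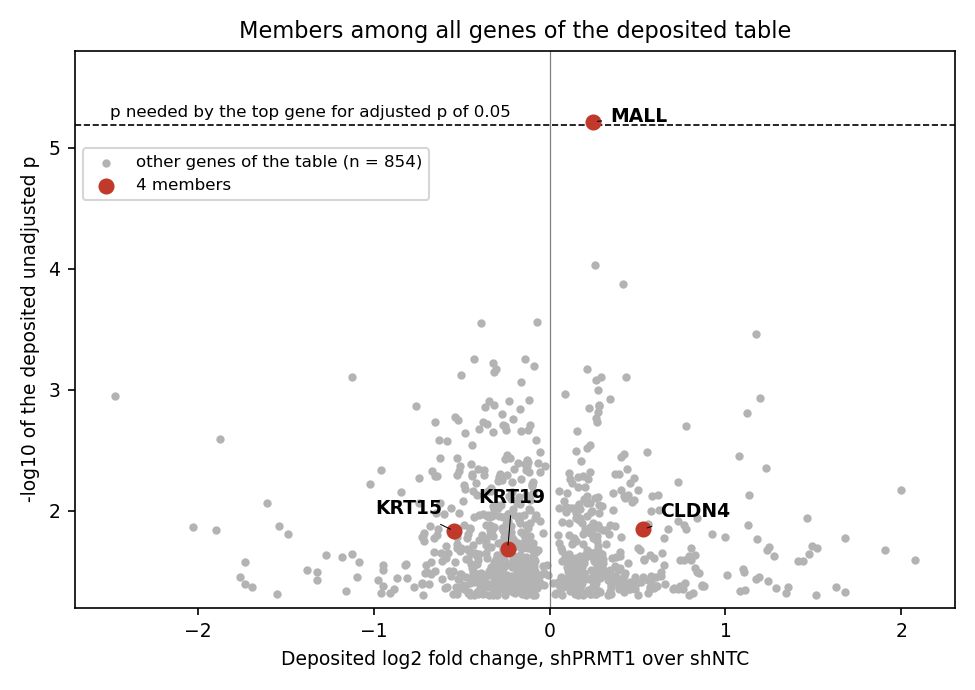
Each point is a gene of the authors' deposited table, with its log2 fold change (shPRMT1 over shNTC) on the horizontal axis and −log10 of its unadjusted p on the vertical axis; the 4 members are red and the dashed line marks p = 6.54e-06. MALL lies above the line close to the vertical zero line, while CLDN4, KRT15 and KRT19 lie inside the cloud of the other 854 genes.

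The genes with values most like the members' were taken as the nearest protein-coding gene on each side in log2 fold change, over the 1 comparison available. CLDN4 lay between TCFL5 (0.53) and ST5 (0.54), and MALL between SMC5 (0.25) and LRRC58 (0.25) in the authors' deposited table. KRT15 lay between VEGFB (−0.55) and POLE4 (−0.54), and KRT19 between GALK2 (−0.24) and NUP37 (−0.24) in the authors' deposited table. Likeness in a single ratio is shared by many genes and describes only their place in the ranking.

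Beside CLDN4, few genes of cell junctions were listed. Over 6 junction lists without CLDN4, the authors' deposited table held 3 of 129 genes, VCL, HSPG2 and GJC1, each on the higher side. Of all 858 listed genes 41.6% were higher. The median log2 fold change of the 3 genes was 0.42, beside −0.12 over all 858. None of the 3 had an adjusted p under 0.05. With CLDN4, which was chosen with its value known, the count was 4 of 130 and the median 0.44. In the lists of tight junctions, adherens junctions and desmosomes alone, 2 of 93 genes were listed, CLDN4 and VCL. CLDN4 was the listed gene of 26 claudins. None of 32 other tight junction genes was listed, a group with occludin and the ZO scaffold proteins, nor any of 16 desmosome genes. VCL encodes vinculin, which couples adherens junctions and focal adhesions to actin, and was the listed gene of 20 in the adherens junction list. It stood at 0.42 on the log2 scale, and its p of 0.000135 (0.308 when adjusted) was the third smallest of the authors' deposited table after MALL and TTI1. E-cadherin (CDH1) and EPCAM, defining genes of epithelial cells, were in that list and were not listed. GJC1, which encodes a gap junction channel protein, was at 0.46 (p = 0.0421), 1 of 21 connexins, and HSPG2, which encodes the basement membrane proteoglycan perlecan, at 0.31 (p = 0.0331), 1 of 16 hemidesmosome and basement membrane genes, in the authors' deposited table. At the rate of the table, 11.2% of the genes tested were listed, but how many junction genes were tested is unknown.

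KRT15 and KRT19 were the listed genes of 28 type I keratins, and 0 of 26 type II keratins were listed. For comparison, 11.2% of all genes tested were listed, and 58.4% of the listed genes were lower. Neither KRT8 nor KRT18, the pair of simple epithelia, and neither of the basal pair KRT5 and KRT14 was listed. Around KRT15 and KRT19 lie other type I keratin genes, KRT13, KRT36 and KRT35 on one side and KRT9, KRT14, KRT16 and KRT17 on the other, and none of these was listed. Of 22 other intermediate filament and keratin-binding genes, VIM and the lamins among them, 0 were listed. A pair of keratin pseudogenes, named after their values were seen, were listed lower as well. KRT18P17 stood at −1.08 (p = 0.0266) and KRT8P12 at −0.37 (p = 0.0431) in the authors' deposited table. Of the 50-base windows of KRT18P17, 5.77% are also in KRT18 and 13.8% in any other gene, so reads of its relatives can be shared with it and its value is uncertain. For a gene outside the table it is unknown whether it was tested and missed an unadjusted p of 0.05 or was never tested.

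Relatives of MALL and other raft genes were listed on both sides. From a list of 27 MAL and MARVEL family genes and their PMP22 relatives, the authors' deposited table held 4, with 2 on each side and a median log2 fold change of −0.05. Beside this, 11.2% of all genes tested were listed, and 58.4% of the listed genes were lower. Beside MALL these were CMTM4 at 0.08 (p = 0.0427), CMTM3 at −0.18 (p = 0.0367) and the epithelial membrane protein EMP1 at −0.43 (p = 0.0497) in the authors' deposited table. The value of CMTM4 changes sign when all log2 values are lowered by 0.1. CMTM4 is known to protect PD-L1 from degradation alongside CMTM6, which was not listed. MAL and MAL2, the apical sorting proteins closest to MALL by name, were not listed, and their coding sequences are 61.6% and 65.2% identical to that of MALL with no common run over 12 bases.

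Caveola and raft genes were listed in 5 of 27 cases, 1 higher and 4 lower, with a median log2 fold change of −0.35 in the authors' deposited table. The share listed was 11.2% over all genes tested, but how many raft genes were tested is unknown. Over all 858 listed genes 58.4% were lower, with a median of −0.12. SDPR, a caveolar coat protein also called cavin-2, was at −0.48 (p = 0.00226) and the prion protein gene PRNP at −0.47 (p = 0.0207) in the authors' deposited table. The caveolin CAV2 was at −0.35 (p = 0.0401) in the authors' deposited table, and basigin (BSG) at −0.09 (p = 0.0184), a value that changes sign when all log2 values are raised by 0.1. STOM, the raft protein stomatin, stood at 0.86 (p = 0.0408) in the authors' deposited table. None of these had an adjusted p under 0.05, and CAV1 and both flotillins were not listed.

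Genes that set or mark epithelial identity were few in the table, but how many of them were tested is unknown. Of all genes tested 11.2% were listed, and of the listed genes 41.6% were higher and 58.4% lower. EHF, an ETS-family transcription factor of epithelia, was the listed gene of 24 epithelial transcription and splicing regulators, at 0.40 (p = 0.00355, or 0.364 when adjusted) in the authors' deposited table. Of 30 surface and polarity genes, the protease inhibitor SPINT2 was at 0.13 (p = 0.0272) and the tetraspanin TSPAN1 at −0.98 (p = 0.0374) in the authors' deposited table. For the tumour subtypes, KRT15 and the cysteine protease CTSV (0.48, p = 0.0353) were the listed genes of 25 basal-like genes, on opposite sides in the authors' deposited table, and 0 of 24 classical genes were listed. Over the 15 epithelial lists together, 19 of 354 genes were listed, 10 higher and 9 lower, with a median of 0.08. These lists include the caveola and raft list, which gave 5 of the listed genes, and without it the authors' deposited table held 14 of 327, 9 higher and 5 lower. Without the 4 members but with the raft list the count was 15, with 8 higher and 7 lower in the authors' deposited table.

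**Figure D4:**
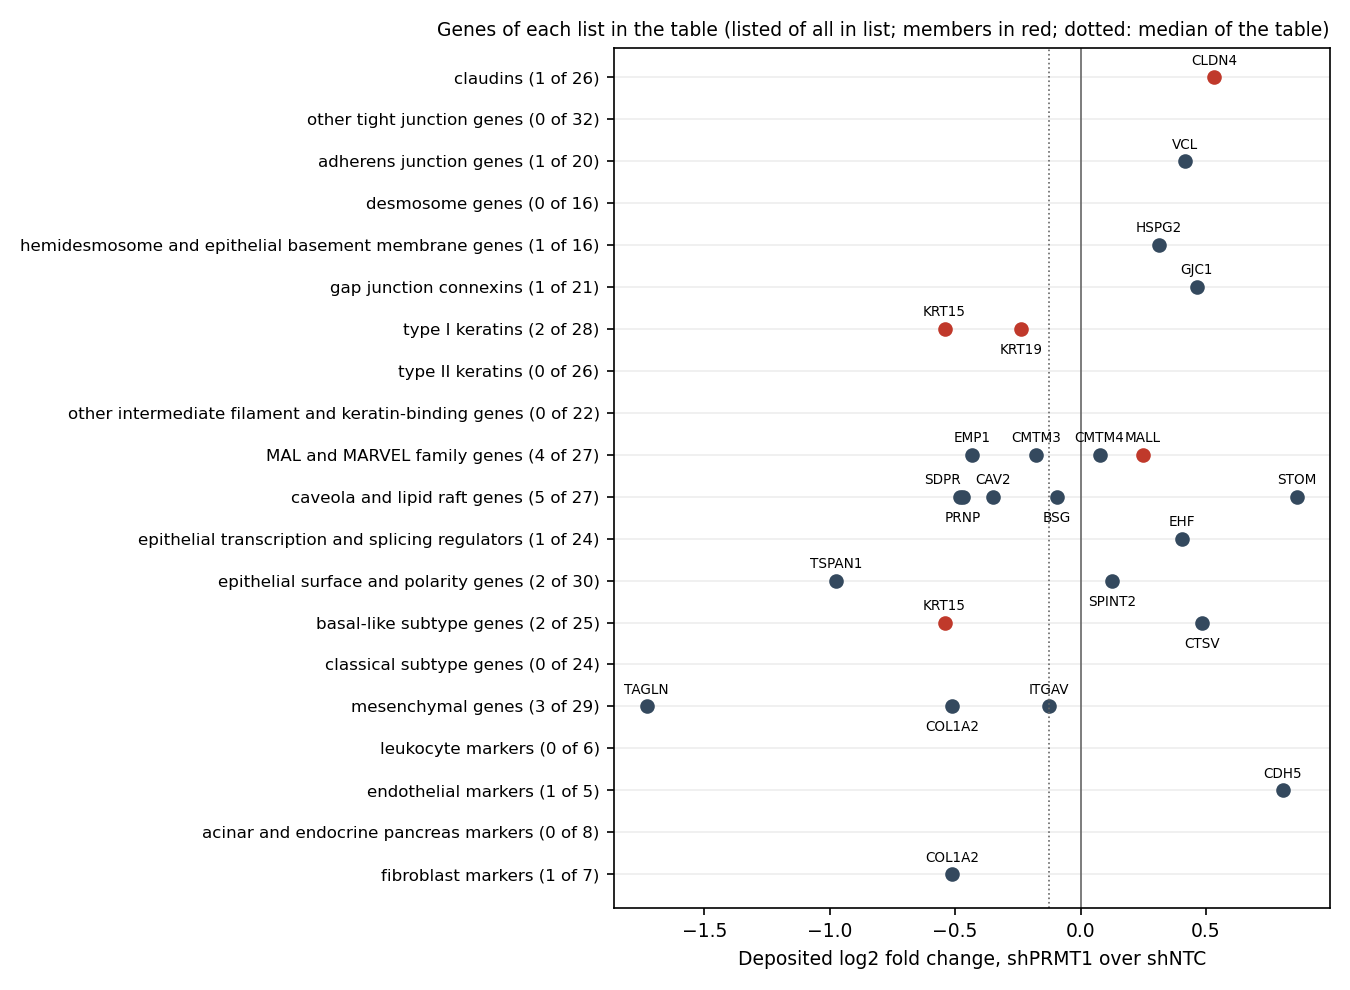
Each row is a gene list, with the number listed of all genes in the list, and each point is a listed gene at its log2 fold change (shPRMT1 over shNTC); members are red and the dotted line is the median of all 858 genes, −0.12. The 4 listed genes of the junction lists, with HSPG2 of the basement membrane among them, lie between 0.31 and 0.53. Both listed keratins and the 3 listed mesenchymal genes lie below 0. Of all 858 genes 58.4% lie below 0.

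Markers of other cell types were set beside these genes. Of 29 mesenchymal genes 3 were listed, all lower: the actin-binding protein TAGLN at −1.73 (p = 0.0401), the collagen COL1A2 at −0.51 (p = 0.0429) and the integrin ITGAV at −0.13 (p = 0.00397) in the authors' deposited table. The share listed was 11.2% over all genes tested. Over all 858 listed genes 58.4% were lower, and ITGAV at −0.125 lay at about their median of −0.125. COL1A2 was also the listed gene of 7 fibroblast markers. The endothelial cadherin CDH5 was at 0.81 (p = 0.0254), 1 of 5 endothelial markers in the authors' deposited table. None of 6 leukocyte markers and none of 8 acinar and endocrine pancreas markers was listed. Levels are not given, so whether the cells express the epithelial markers at all, and how much, could not be checked from the table. All samples are labelled MiaPaca-2, a single cell line, so these markers are not read as shares of other cell types. In bulk RNA, fewer cells with a transcript and less of it per cell cannot be told apart.

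KRT15 and KRT19 lie next to each other on chromosome 17, and CLDN4 and MALL lie on other chromosomes. Of the 10 nearest protein-coding genes on chromosome 7 around CLDN4 and the 10 on chromosome 2 around MALL, 0 were listed. For KRT15 and KRT19, 1 of 10 was listed in each case, which was the other of the pair. Over all genes tested 11.2% were listed, but how many of these neighbours were tested is unknown. The longest protein-coding transcripts measured 1390 bases for KRT19, 3061 for MALL, 4163 for CLDN4 and 5237 for KRT15. In 5 equal groups of increasing length the share of genes listed lower was 68.8%, 75.1%, 64.5%, 50.9% and 34.3% in the authors' deposited table. KRT19 fell in the shortest of these groups, MALL in the middle one, and CLDN4 and KRT15, which were listed in opposite directions, in the same one. The part of length in the members' ratios was not tested.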

How the data were processed

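RNA of 2 shPRMT1 and 2 shNTC samples, grouped by their titles, was compared by the authors. Per the submitters' processing notes, the tools included HISAT2 2.2.1 and StringTie 2.2.1, beside Trim Galore 0.6.7, deepTools and edgeR 3.36.0, with the build hg19; which tool did what is not given there. The extraction text in the labels describes a chromatin immunoprecipitation beside a total RNA library kit, and the samples were treated as RNA, as their molecule label states. Per gene, the authors deposited a linear ratio of both groups and the log2 of that ratio, together with a p-value before and after adjustment. The sources used here name neither the test nor the normalization, filter or depth, so no interval or standard error is stated and no test of samples was run.

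That 7640 genes were tested follows from p, rank and adjusted p (52 of 53 runs of equal adjusted p within 0.01). The step was tested on simulated data and recovered the number in 50 of 50 tables. Members and lists were chosen with earlier results of these data known. The 20 lists (403 genes) were matched by symbol, and 1 gene (SDPR) by synonym. Named genes were the members, PRMT1, up to 8 listed genes per list by p, and the nearest protein-coding genes in log2 fold change. Sequences, lengths and gene order came from GENCODE 29, a GRCh38 annotation, matched for 846 of 858 genes (98.6%). As the authors' build differs, no coordinates are given. Windows of 50 and 100 bases were compared with all its transcripts on both strands. Coding sequences were aligned globally. Alternatives were other thresholds, shifts of all log2 values by 0.1 and list settings. Python 3.11.15, numpy 2.4.6, pandas 2.3.3, Biopython 1.88 and matplotlib 3.10.9 were used. The result of 1 sequence comparison is not reported here.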

Additional observations from a re-analysis of the deposited data

How the results depend on the processing

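No paired analysis was possible because the authors' deposited table holds 1 comparison and no values of single samples; for the same reason leaving out a replicate was not run. The count of 1 member at an adjusted p under 0.05 dropped to 0 when the adjusted p had to be under 0.01. It was also 0 when a log2 change of 1 or more in either direction was asked for as well, since the thresholds themselves set it. At an adjusted p under 0.1 the count was 1, and the next authors' adjusted p among all listed genes was 0.308. The count was also 1 at unadjusted p-values under 0.01 and 0.001. An unadjusted p under 0.01 was reached by 191 of the 858 listed genes. The split of 2 members higher and 2 lower was the same with all log2 values raised or lowered by 0.1 and with the median of the listed genes (−0.12) set to 0, which put KRT19 at −0.11 and MALL at 0.37. Of the epithelial lists, 9 listed genes were lower as deposited, 8 with values raised by 0.1, 10 with values lowered by 0.1, 8 by symbol only, 7 without the 4 members, 5 without the caveola and raft list (a setting chosen after seeing the data, with fewer genes counted), and 1 of 4 at an unadjusted p under 0.01, where fewer genes are counted; their median log2 fold change of 0.08 was −0.02 with values lowered by 0.1. Depth is unknown, so what it limits cannot be stated.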
